A study of Arabidopsis thaliana with 3 samples.

Results

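This set of Arabidopsis thaliana transcripts rose strongly when dry seed took up water and stood higher still when the seed germinated in the presence of TSA (trichostatin A), a compound that blocks histone deacetylases. The members were chosen by the measured signals themselves. A probe set had to be at least 2-fold higher in TSA-treated than in untreated imbibed seed, and its signal in untreated imbibed seed had to exceed that in unimbibed seed at least 16-fold. Both ratios are therefore given as a description with no test. The rule found 55 probe sets, and 3 were left out by name: RCA, AT1G74470 and XTH16. The remaining 52 members stood among 22746 probe sets in all. Of the 52 members, 11 were paired with 1 gene and are named, 2 were paired with several genes and 39 with none. Names of left-out genes could be applied only to probe sets paired with 1 gene, so the other 41 members were not screened by name. A probe set paired with no gene is unnamed here, not without a gene.

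Seed of ecotype Columbia was compared in 3 states, each on 1 Affymetrix ATH1 array. The TSA-treated seed was imbibed for 3 days on medium with TSA, the untreated seed was imbibed for 3 days on the same kind of medium without it, and the unimbibed seed was dry. All germinating seed was kept under long days with light. The field that describes the treated sample gives 10 µM TSA, while the shared treatment protocol gives 10 mM. No label states how many seeds or seed batches went into an array, and whole seed mixes embryo and surrounding tissues. With 1 array per state there is no replicate check on any difference, no p-value is given, and precision is limited by how few arrays there are.

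Imbibition is the uptake of water by a dry seed. It restarts metabolism, and after germination the embryo becomes a seedling that turns green and builds its photosynthetic apparatus. Histone deacetylases remove acetyl groups from histones and are generally tied to lower transcription, and Arabidopsis deacetylases are known to help shut down embryo genes in the germinating seedling. Chloroplasts convert light energy through photosystem II, the cytochrome b6f complex and photosystem I, and the Calvin cycle then fixes carbon dioxide.

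Signals were scaled to one trimmed mean on all arrays, and signals under a floor of 10.7 were raised to it for ratios. A ratio with unimbibed seed at the floor is a lower bound and is written "at least". "Rose" and "fell" are used only of ratios of at least 2-fold in size. Seed markers were read in the labelled states as a description, which is no check of the labels. A list of seed storage, oil body and LEA protein genes, written with their values known, had 7 measured genes. They were between 3030 and 10638 in unimbibed seed, and all 7 fell by at least 2-fold on imbibition. Their median log2 ratio was -8.66, and the fall may be larger because that gene's untreated signal was below the floor. With TSA 6 of these 7 rose and 0 fell, beside 10.4% higher and 9.51% lower over all measured probe sets. Among them AT3G01570, an oleosin, rose 9.65-fold, from 31.4 without TSA to 303.0 with it, against 5328 in unimbibed seed. The median log2 ratio of the 7 was at least 2.11, since the untreated signals of AT2G28490 and M10 were below the floor. With TSA all 7 were still lower than in unimbibed seed, with a median log2 ratio of -6.06. Seed markers thus moved up with TSA beside the members but stayed far below unimbibed seed. Their part in the members' ratios was not tested. Scaled poly-A control signals were not equal: they averaged 0.43 higher on the log2 scale in TSA-treated than in untreated imbibed seed, and their mean log2 ratio of untreated imbibed over unimbibed seed was -1.68. Hybridisation controls gave 0.07 and -0.74 for the same ratios. Signals of 3′ over 5′ control probe sets, a sign of RNA integrity, ranged from 0.757 to 4.31 with TSA, from 0.876 to 4.66 without it and from 0.667 to 3.87 in unimbibed seed. The part of these differences in the results was not tested.

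A ratio of 16-fold over the floor requires an untreated signal of at least 172, and the TSA criterion a higher one still, so the brightness of the members is set by the rule and is given as a description. Their signals ran from 399 to 3988 with TSA (median 1271), from 172 to 828 without it (median 389.9) and from 0.287 to 29.5 in unimbibed seed (median 6.54). The ranges overlap between the imbibed states, and no member's unimbibed signal reached any imbibed one. With TSA 34 of the 52 members exceeded a signal of 1000, against 0 of 52 in untreated seed. Among all probe sets, a signal of 1025 stood at the 99.4th percentile with TSA, and 973.2 at the 99.3rd without it. The counts differ in part through the TSA ratio in the rule, so nothing is read from the difference. Together the 52 members held 6.13% of all signal in TSA-treated seed, 1.62% in untreated imbibed seed and 0.0253% in unimbibed seed. In unimbibed seed 34 members were at or below the floor and 18 were above it, so 34 of the imbibition ratios are lower bounds.

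**Figure D1:**
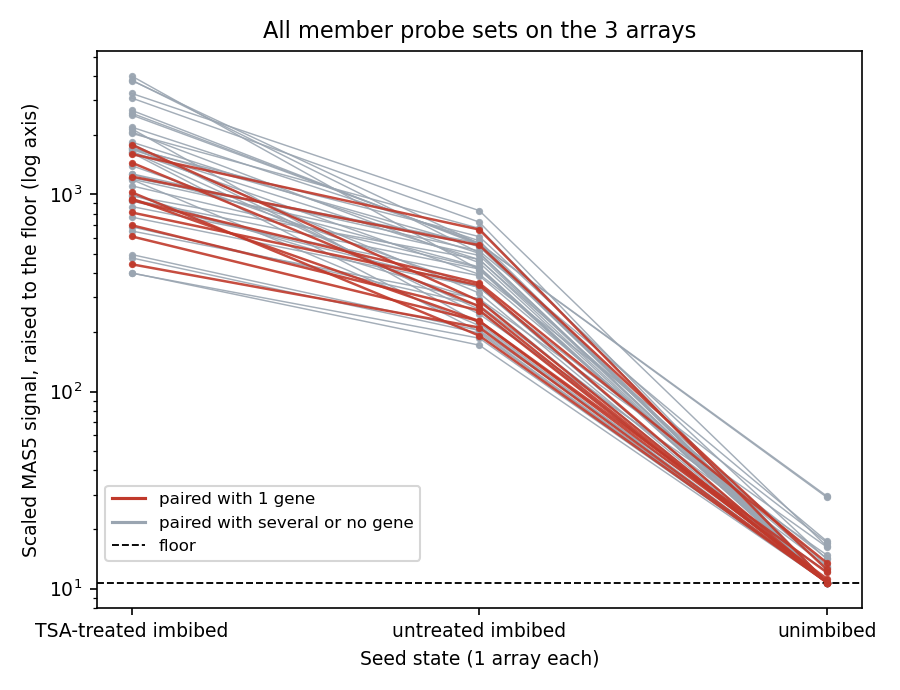
Scaled MAS5 signal, raised to the floor, of all 52 members on a log axis for TSA-treated imbibed, untreated imbibed and unimbibed seed (1 array each); red lines are the 11 members paired with 1 gene, grey lines the other 41, and the dashed line is the floor of 10.7. The untreated signals lie between 172 and 828 and the TSA signals between 399 and 3988.

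The ratios spread over the range the rule allows. The log2 ratio of untreated imbibed over unimbibed seed had a median of at least 4.91 and a highest value of at least 6.07, and that of TSA over untreated imbibed seed from 1.07 to 3.28 with a median of 1.63, a 3.11-fold difference. Against unimbibed seed the TSA signals had a median ratio of at least 111-fold, from at least 37.1-fold to at least 371-fold, and the rule fixes that direction. With TSA 20 members passed 4-fold, beside 2.27% of all measured probe sets. A further limit of 3-fold was passed by 27 members and 8-fold by 3, with no share over all probe sets counted for these. The background was low in both steps: 1.96% of 16246 measured probe sets were at least 16-fold higher after imbibition, and 10.4% of 15700 were at least 2-fold higher with TSA. Both criteria together were met by 0.321% of the 17148 probe sets above the floor on any array. Because the rule used these contrasts, nothing is read from these shares about the members. Over all measured probe sets the median log2 ratio was 0.01 for imbibition and -0.02 for TSA.

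Probe sets that rose at least 16-fold on imbibition numbered 318. Of these, 55 (17.3%) were at least 2-fold higher with TSA, 82 were at least 2-fold lower and 181 lay within 2-fold. The median untreated signal of the members was 389.9, against 476.5 in the 82 lower with TSA and 399.7 in the 181 within 2-fold. Members at or below the floor in unimbibed seed made up 65.4% of the set, against 56.1% of the 82 and 58.6% of the 181. The brightest untreated member reached 828, whereas the brightest of the 82 reached 2515 and the brightest of the 181 reached 3400. These differences have no test, and the 82 and the 181 were not screened by name as the members were. The TSA and imbibition ratios both use the untreated array, so an array-specific error in it moves both. The untreated signal is also the denominator of the TSA ratio that split these groups. A low untreated signal therefore favours the members, and nothing is read from its differences between the groups.

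**Figure D2:**
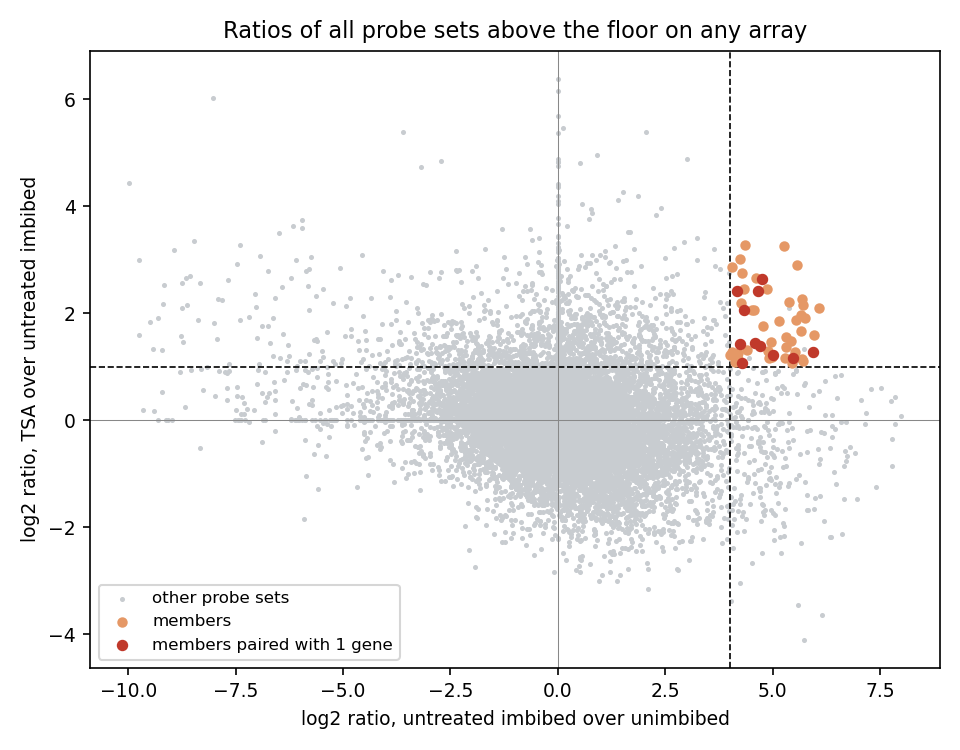
Log2 ratio of TSA over untreated imbibed seed (y) against log2 ratio of untreated imbibed over unimbibed seed (x) for the 17148 probe sets above the floor on any array; orange points are members, red points the 11 members paired with 1 gene, and dashed lines mark 16-fold and 2-fold. Both axes share the untreated array, and the members fill the upper right corner by the rule.

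Among the 11 named members 4 encode proteins of photosynthesis, a grouping made from background knowledge with the members in view and with no share among other probe sets to set it against. PSAE-1 encodes a stromal subunit of photosystem I at the docking side for ferredoxin. Its signal was 1787 with TSA, 288.2 without it and 7.04 in unimbibed seed. It rose 6.20-fold with TSA, the highest ratio among the named members, and was at least 26.8-fold higher in untreated imbibed than in unimbibed seed. AT2G26500 encodes the small PetM subunit of the cytochrome b6f complex, which passes electrons between the photosystems. It had 1450 with TSA, 270.3 without it and 1.72 in unimbibed seed. That is a 5.36-fold rise with TSA, on top of an imbibition ratio of at least 25.2-fold.

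PRK encodes phosphoribulokinase, the Calvin cycle enzyme that makes the carbon dioxide acceptor ribulose bisphosphate. Its signal was 952.8 with TSA, 227.7 without it and 11.2 in unimbibed seed, just above the floor. It rose 4.18-fold with TSA and 20.3-fold on imbibition. PSBY encodes small membrane proteins of photosystem II. It had 935.4 with TSA, 354.6 without it and 13.5 in unimbibed seed, a 2.64-fold rise with TSA and a 26.3-fold rise on imbibition. PSBY therefore had the highest untreated signal of these 4 genes and the smallest TSA ratio.

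Other genes of the photosynthetic apparatus were read beside these members. A list of 65 nuclear photosystem and electron transport entries had 10 measured genes. This and the other lists were written with earlier results of these data known. With TSA 8 of the 10 rose and 0 fell, with a median log2 ratio of 1.92, against 10.4% higher, 9.51% lower and a median of -0.02 over all measured probe sets. On imbibition 8 of the 10 rose and 0 fell, with a median log2 ratio of at least 2.67. Over all measured probe sets 22.6% were higher and 21.1% lower. PSAE-1 and PSBY are among these 10, so their part in the counts and medians is set by the rule. With poly-A controls set equal, 5 of the 10 rose with TSA and the median was 1.48.

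Of the other 8 genes in that list, PSBW, a small photosystem II subunit, had a signal of 1051 with TSA, 197.0 without it and 31.6 in unimbibed seed, and rose 5.34-fold with TSA. ATPC1, the gamma subunit of the plastid ATP synthase, had 702.7 with TSA, 263.5 without it and 17.2 in unimbibed seed, and rose 2.67-fold with TSA. Its imbibition log2 ratio of 3.93 left it just short of the set. CaS, a thylakoid calcium-sensing protein, had 131.5 with TSA, 50.7 without it and 1.58 in unimbibed seed, and rose 2.59-fold with TSA. LHCB4.2, PSAN and LHCB4.1 had larger TSA ratios than PSBW, at 9.38-fold, 7.99-fold and 5.71-fold. The dim gene ATPC2 had a TSA log2 ratio of -0.33 and LHCB4.3 one of 0.38, and neither rose in either comparison.

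In the Calvin cycle list 3 of 28 entries were measured, and all 3 rose in both comparisons; with poly-A control scaling 2 of the 3 rose with TSA, and SBPASE did not. PRK is a member and RCA met both criteria, so their rises are set by the rule. The third is SBPASE, which regenerates the acceptor molecule. SBPASE had a signal of 471.6 with TSA, 198.6 without it and 19.7 in unimbibed seed, a 2.37-fold rise with TSA. Its imbibition log2 ratio of 3.33 is below the 16-fold limit. In the photorespiration list, the pathway that salvages the side product of carbon fixation, only HPR of 29 entries was measured. HPR had 827.5 with TSA, 69.0 without it and 107.6 in unimbibed seed, so it rose with TSA but not on imbibition, where its log2 ratio was -0.64.

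Genes of chlorophyll and carotenoid biosynthesis gave a different count. Of 9 measured with TSA 2 rose and 0 fell, with a median log2 ratio of -0.04. Over all measured probe sets 10.4% were higher and 9.51% lower. With poly-A control scaling 0 of 9 rose and 1 fell. The 2 that rose were HEME1, a uroporphyrinogen decarboxylase, with a log2 ratio of 1.08, and CHLM, which rose 2.15-fold. AT1G74470, left out of the set by name, is not among these 9. It met both criteria and rose 2.53-fold with TSA. PORB, which makes chlorophyllide in the light, had 843.0 with TSA, 938.5 without it and 2.59 in unimbibed seed, so it was at least 87.4-fold higher after imbibition and had a log2 ratio of -0.15 with TSA.

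**Figure D3:**
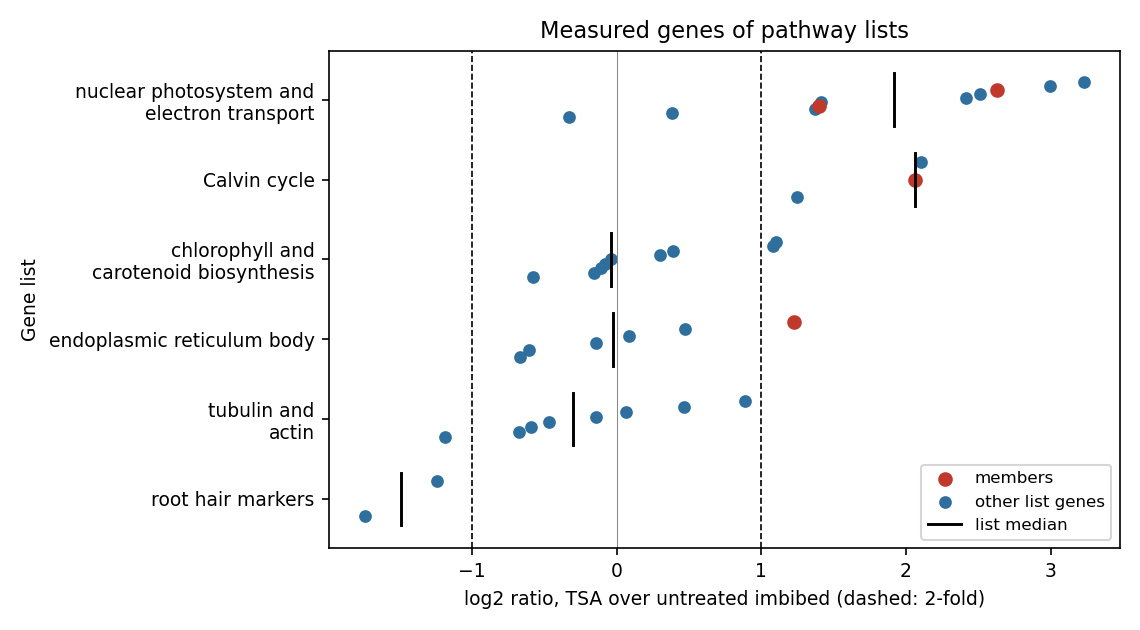
Log2 ratio of TSA over untreated imbibed seed for each measured gene of 6 gene lists; red points are members, blue points other list genes, black bars the list medians and dashed lines 2-fold. In the photosystem list 8 of 10 genes lie past the right-hand dashed line, against 1 of 6 in the endoplasmic reticulum body list and 0 of 8 in the tubulin and actin list.

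AT4G21870 encodes a member of the HSP20-like family of small chaperones. Its signal was 1025 with TSA, 192.1 without it and 4.74 in unimbibed seed. Its TSA ratio was 5.34-fold, and it was at least 17.9-fold higher after imbibition. It shared its place among the 4 largest named TSA ratios with PSAE-1, AT2G26500 and PRK.

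Lectin and latex-type proteins followed with smaller TSA ratios. JAL22 encodes a jacalin-related lectin, of a family whose members bind the β-glucosidase PYK10 when cells are broken. It had 809.9 with TSA, 345.9 without it and 8.91 in unimbibed seed, a 2.34-fold rise with TSA and a rise of at least 32.2-fold on imbibition. AT4G23670 encodes a protein of the major latex protein family, which has a pocket for hydrophobic ligands. Its signal was 1602 with TSA, 663.3 without it and 3.16 in unimbibed seed. Its imbibition ratio was at least 61.8-fold and its TSA ratio was 2.42-fold.

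Of the 6 measured genes on the endoplasmic reticulum body list, JAL22 rose with TSA, as the rule requires of a member, and of the other 5 genes 0 rose and 0 fell. All 6 rose on imbibition, with a median log2 ratio of at least 6.33. The TSA median was -0.03, which turned to 0.0032 with signals as deposited. With poly-A control scaling 0 of the 6 rose with TSA and 2 fell, JAL34 and NAI2. PYK10, the most abundant of these proteins in seedlings, had 3501 with TSA, 3296 without it and 12.9 in unimbibed seed, a TSA log2 ratio of 0.09. JAL33, a lectin of the same family, had a TSA log2 ratio of 0.47, and JAL34 had -0.61. NAI2, needed to form these bodies, had -0.67 and its transcription factor NAI1 had -0.14.

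A further 3 members encode proteins of secreted or cell surface families. AT1G29670 encodes a GDSL-type esterase/lipase. Its signal was 697.7 with TSA, 257.5 without it and 0.287 in unimbibed seed, and it rose 2.71-fold with TSA and at least 24.0-fold on imbibition. AT4G16980 is annotated as an arabinogalactan protein, a class of heavily glycosylated proteins at the cell surface. Its member probe set had 612.4 with TSA, 227.8 without it and 12.1 in unimbibed seed, a 2.69-fold rise with TSA and an 18.9-fold rise on imbibition. AT3G54400 encodes an aspartyl protease. It had 442.2 with TSA, 211.2 without it and 9.63 in unimbibed seed, and its TSA ratio of 2.09-fold was the lowest among all 52 members.

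AT4G16980 was the 1 named gene with a further probe set, and the readings disagree. The second probe set had a signal of 16.5 with TSA, 10.4 without it and 3.74 in unimbibed seed. The last 2 are below the floor, so this reading gave no rise on imbibition and a TSA log2 ratio of 0.62, itself a lower bound. Which reading is right was not tested. Across loci with several probe sets above the floor, log2 ratios of probe sets of 1 locus differed with an SD of 0.75 for imbibition (41 loci) and 0.38 for TSA (49 loci), and neither SD includes variation between seed batches.

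ZW9, a gene with TRAF-like (MATH) domains, had 1232 with TSA, 552.7 without it and 12.5 in unimbibed seed. It rose 2.23-fold with TSA and 44.2-fold on imbibition. Of the named members it had the second smallest TSA ratio. For 7 of the 11 named members, unimbibed seed was at or below the floor, so the 11 cannot be ranked by imbibition ratio. The TSA log2 ratios of the 11 did not change under 4 other floors, because both imbibed signals of each lay above every floor. Each of 5 other scalings shifts all TSA ratios by 1 common amount, at its lowest -0.43. That the 11 stayed above 0 is therefore set by the rule and is no check. The lowest ratio was 0.63, for AT3G54400 with poly-A controls set equal. Under that scaling 5 of the 11 stayed members, namely PSAE-1, AT2G26500, PRK, AT4G21870 and AT1G29670, while the TSA ratios of PSBY, AT4G16980, AT3G54400, AT4G23670, ZW9 and JAL22 were under 2-fold.

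**Figure D4:**
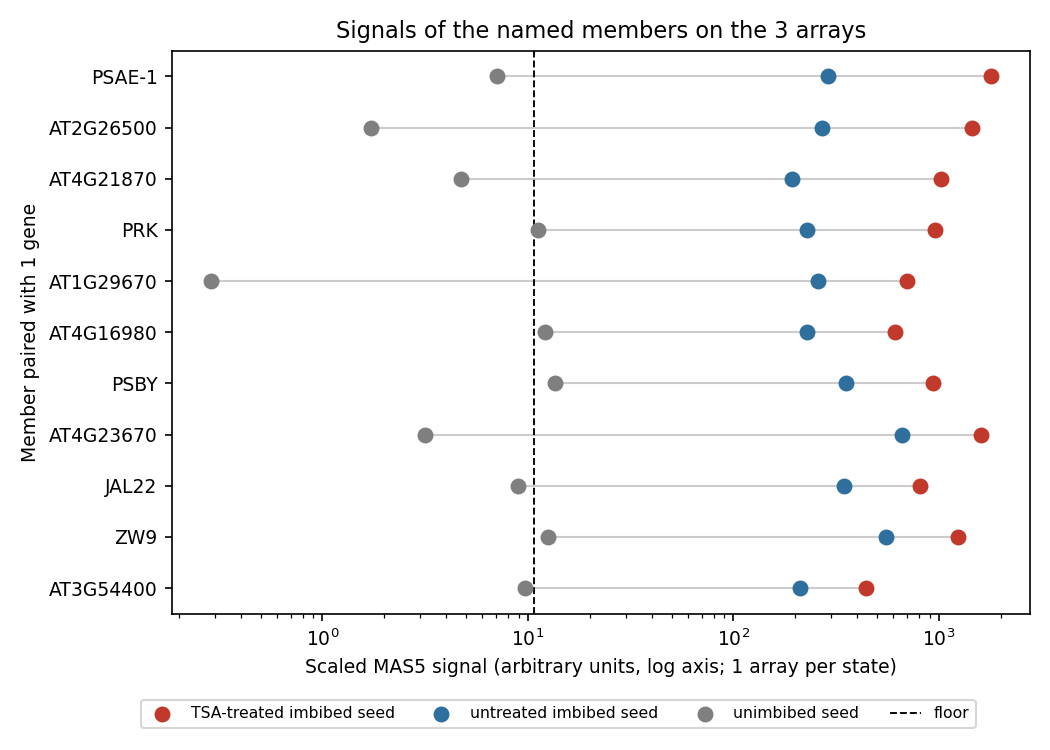
Scaled MAS5 signal (log axis) of the 11 members paired with 1 gene in TSA-treated imbibed seed (red), untreated imbibed seed (blue) and unimbibed seed (grey), 1 array each, ordered from the largest TSA ratio at the top; the dashed line is the floor of 10.7. TSA signals lie between 442 and 1787 and untreated signals between 192 and 663.

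Lists of other roles gave other counts. In the tubulin and actin list 7 of 9 measured genes rose on imbibition and 0 fell, and with TSA 0 of 8 rose and 1 fell, with a median log2 ratio of -0.30. With poly-A control scaling 3 of 8 fell. The 1 that fell was the α-tubulin gene TUA6, with 773.2 with TSA, 1763 without it and 19.7 in unimbibed seed. Both measured root hair markers, EXPA7 and EXPA18, rose on imbibition. With TSA both fell, EXPA7 with a log2 ratio of -1.74 and EXPA18 with -1.24. Their signals were 30.4 and 70.9 with TSA, against 101.4 and 167.2 without it. In bulk seed, fewer cells of a type and less RNA per cell cannot be told apart, and the part of root hair cells in the members' ratios was not tested.

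The remaining lists held few measured genes. Of the glucosinolate list 3 genes were measured with TSA, of which UGT74B1 rose (log2 ratio 1.31) and BCAT4 fell (-1.10). BCAT4 was near the floor, at 11.0 with TSA and 23.5 without it. With poly-A control scaling 0 rose and 1 fell, and with the floor at the 60th percentile 1 rose and 0 fell. In the anthocyanin and flavonoid list 2 of 4 rose with TSA, DFR (1.71) and UF3GT (at least 2.36-fold). UGT78D2 fell, with a log2 ratio of -1.40. UF3GT was dim, at 25.3 with TSA and 7.19, below the floor, without it. With poly-A control scaling 2 rose and 2 fell, and with the floor at the 60th percentile 1 rose and 1 fell. GUT2, the 1 measured gene of the vascular list, had -0.15. The lists for cell wall structure, aquaporins, and cuticle and lipid transfer had 0 measured genes.

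Neighbouring genes were examined because adjacent genes were not used by the rule. The places within 2 protein-coding genes on either side of the 11 named members numbered 44. Probe sets paired with 1 gene covered 20 of them, and 16 were above the floor on at least 1 array. Of 15 measured with TSA 2 rose and 0 fell, beside the 10.4% that were higher and 9.51% lower over all measured probe sets. Of 14 measured on imbibition 5 rose and 2 fell, beside 22.6% and 21.1%. The 2 that fell were AT1G29680, with a log2 ratio of -5.80, and TRM20, with -1.92. A rise of at least 16-fold on imbibition was found for 2 of the 14, beside 1.96%.

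The 2 neighbours that rose with TSA were LrgB and AT1G29660. LrgB, next but 1 to PRK, encodes a plastid envelope transporter of glycolate and glycerate, which belong to photorespiration. It had 240.3 with TSA, 35.2 without it and 5.60 in unimbibed seed, a TSA log2 ratio of 2.77. AT1G29660, the gene beside AT1G29670 and also of the GDSL family, had 125.8 with TSA, 62.6 without it and 0.575 in unimbibed seed, a TSA log2 ratio of 1.01, just past the limit.

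Of the 2 neighbours that rose at least 16-fold on imbibition, neither rose with TSA. AT4G23680, beside AT4G23670 and of the same latex protein family, had 1301 with TSA, 973.2 without it and 8.62 in unimbibed seed, a TSA log2 ratio of 0.42. AT1G67750, beside PSBY and of the pectate lyase family, had 309.1 with TSA, 207.1 without it and 1.72 in unimbibed seed, a TSA log2 ratio of 0.58. JAL23, next but 1 to JAL22, was below the floor on all 3 arrays.

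The 41 members without a single gene name were brighter with TSA by median only. They ran from 399 to 3988, and the 11 named members from 442 to 1787. Their signals with TSA had a median of 1627, against 952.8 for the 11 named members, and their untreated signals had a median of 425.2, against 270.3 for the named ones. Their TSA log2 ratio had a median of 1.76, with a highest value of 3.28, against 1.43 and 2.63 for the named ones. The brightest of them had 3988 with TSA, 415.0 without it and 6.32 in unimbibed seed, a 9.61-fold rise with TSA. It is a probe set of the s_at type, which can match several related transcripts. Its signal may therefore not come from 1 transcript. In the set 7 members are of this type, all of them unnamed. They include the next brightest with TSA, at 3801 and 3785, and the highest imbibition ratio, at least 67.4-fold. The part of related transcripts in these signals was not tested. All 3 members at least 8-fold higher with TSA were among these unnamed ones. The share with a single gene was 21.2% in the set, against 29.3% of the 82 that were lower with TSA and 33.7% of the 181 within 2-fold. These shares are not like for like. The 3 probe sets left out of the set by name all had 1 gene, while the 82 and the 181 were not screened by name. Over all 22746 probe sets, 13513 had 1 gene. Most of the set cannot be described by gene here.

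Several probe sets lay close to the limits of the rule. Just inside the 16-fold limit were 3 unnamed probe sets with imbibition ratios from 16.0-fold (at least) to 16.7-fold. Just outside it were AT1G73120 with at least 15.9-fold, EXO with at least 15.3-fold and an unnamed probe set with 15.9-fold. EXO, which encodes EXORDIUM, a cell wall protein linked to brassinosteroid-promoted growth, rose 4.59-fold with TSA. Just inside the 2-fold limit were AT3G54400 with 2.09-fold and 2 unnamed probe sets, the higher with 2.14-fold. Just outside it were AT1G62660 with 1.94-fold and 2 unnamed probe sets with 1.93-fold and 1.98-fold.

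The size of the set moved with the floor, the thresholds and the scaling. The rule as given found 52 members. Signals as deposited gave 71 and hybridisation control scaling 66. Poly-A control scaling gave 65, of which 31 were shared with the 52. With the floor at the 60th percentile 27 were left, all among the 52, and 2 of them were named, AT4G23670 and ZW9.

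**Figure D5:**
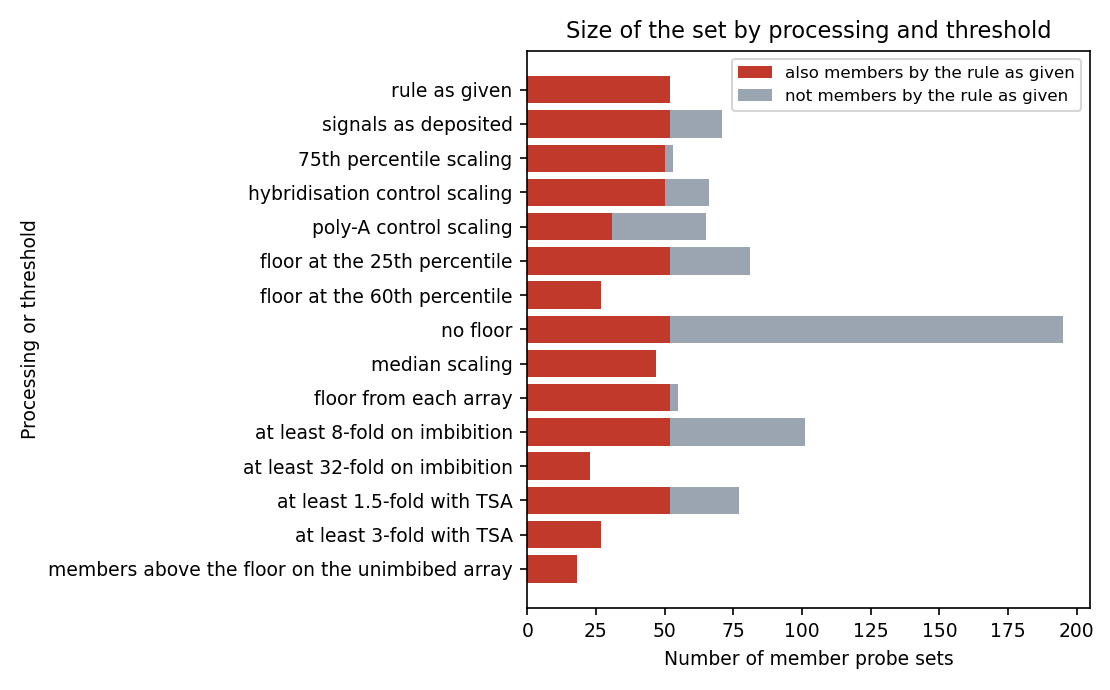
Number of member probe sets under each processing and threshold; red bars are probe sets that are also members by the rule as given and grey bars those that are not. The count runs from 18, for members above the floor on the unimbibed array, to 195 without a floor.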

How the data were processed

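Per the submitters' processing notes, the authors made the deposited intensity values, a linear signal for each probe set, with MAS5. The version, scaling target and detection calls of MAS5 are not stated there. Columns were matched to samples by name, and 0 of them stayed unmatched. Control (AFFX) probe sets, 64 of 22810, were set aside. The other 22746 were scaled to a common 2% trimmed mean, because the deposited trimmed means were 44.4 with TSA, 43.4 without it and 26.5 in unimbibed seed. A change in total messenger RNA per seed is invisible after such scaling. The floor was the 40th percentile of the pooled scaled signals, a signal of 10.7. A probe set was measured in a comparison where either signal was above the floor. With 1 array per group no test was made.

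Gene names came from the platform annotation, updated by gene identifier through RefSeq (TAIR10.1). Of the probe sets, 13513 had 1 gene, 503 had several and 8730 had none there. The files name no genome build, so no coordinates are given. Gene roles are background knowledge, and sequences were not used here. Every member paired with 1 gene is named. Other genes named come from pathway lists, from neighbours within 2 genes and from the nearest cases at each threshold. The members and lists were chosen with earlier results of these data known. In lists, a locus has the mean over its probe sets, and 4 loci matched to a wrong gene of the same symbol were removed. The ratios and calls were run on simulated data with differences past both limits planted in bright probe sets. The simulated noise was smaller than the spread between probe sets of 1 locus. That run checks the calculation and does not bear on members near the limits. Calculations used Python 3.11.15 with numpy 2.4.6 and pandas 2.3.3. Alternative scalings, floors and thresholds were tried.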

Additional observations from a re-analysis of the deposited data

How the results depend on the processing

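The number of members, 52, was 81 with the floor at the 25th percentile, 27 at the 60th and 195 without a floor, where a signal of 0 was raised to the lowest positive signal of its array. It was 101 with at least 8-fold and 23 with at least 32-fold on imbibition, 27 with at least 3-fold with TSA, and 18 with members above the floor on the unimbibed array. Under the other alternatives it stayed within 1.5 times, from 47 to 77. The count at least 16-fold higher on imbibition, 318, was 830 under poly-A control scaling, 175 under a 60th percentile floor and 1130 if no floor was set. The count at least 2-fold higher with TSA, 1639, was 1070 under a 60th percentile floor and 3952 if no floor was set. The count at least 2-fold higher in TSA-treated than in unimbibed seed, 3808, was 7027 with poly-A control scaling and 6720 without a floor. A lower floor leaves more ratios of dim signals by construction. For the rest the cause was not tested.

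With poly-A control scaling the list medians for TSA over untreated seed were 1.48 for photosystems, -0.47 for chlorophyll and carotenoids, -0.46 for endoplasmic reticulum bodies and -0.74 for tubulin and actin. The endoplasmic reticulum body median of -0.03 was 0.0032 with signals as deposited. The share of all TSA calls that were higher was 52.3% as scaled and 22.4% with poly-A control scaling. For imbibition it was 51.7% as scaled, 75.7% as deposited, 76.7% with hybridisation control and 92.3% with poly-A control scaling. These scalings shifted imbibition log2 ratios by 0.71, 0.74 and 1.68, and poly-A control scaling shifted TSA ratios by -0.43. Median scaling and a floor from each array were chosen after seeing the data. No paired analysis was possible because each state has 1 array. Without replicates or detection calls, signals near the floor cannot be told from background.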
